A study of Homo sapiens with 9 samples.

Results

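The genes described here encode the receptor tyrosine kinases PDGFRA, PDGFRB and KIT and their ligands. They are 8 of the 60675 Ensembl genes in the deposited count table and were chosen by name. The ligands are KITLG, which binds KIT, and PDGFA, PDGFB, PDGFC and PDGFD, which bind the PDGF receptors. RNA was sequenced from SC10, SC07 and SC01, subclones each raised from 1 cell of the human melanoma line SK-MEL-5, which carries a BRAF mutation. All 3 clones were grown without drug and sampled untreated, with 3 libraries each. They had been picked for how they first responded to PLX-4720, a BRAF inhibitor, but no label ties a clone to a response. Each group is 1 clone, and clone cannot be told apart from batch of culture or extraction. Nothing states that sister libraries are separate cultures, so the p-values may reflect technical spread alone.

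PDGFRA, PDGFRB and KIT belong to the same receptor class, with immunoglobulin-like domains outside the cell and a kinase domain split by an insert inside it. Their ligands are dimers that bring receptor chains together, which starts signalling through RAS and ERK, phosphoinositide 3-kinase and STAT proteins. In the melanocyte lineage KIT and KITLG are known for guiding the migration and survival of melanoblasts, and KIT is often lost as melanomas progress. PDGF-A and PDGF-B are cleaved inside the cell, whereas PDGF-C and PDGF-D are secreted in a latent form that extracellular proteases activate. Increased PDGFRB has been described in melanoma cells that became resistant to BRAF inhibitors.

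The libraries held between 30224066 and 39454087 counts. Values are given as CPM (counts-per-million of the genes tested, with TMM scaling), and a gene with 3 counts stood at 0.0773 to 0.0948 CPM, depending on the library. SC10 replicate 3 stood apart from its sister libraries, with chi-square values per degree of freedom of 10.6 and 11.7 against them, compared with 2.56 between SC10 replicates 1 and 2. Leaving it out ended 1 call among these genes, that of PDGFRB in SC10 against SC07. All 10 melanocyte markers were measured, with a summed level of 15561 to 15788 CPM in SC10, 24881 to 25371 CPM in SC07 and 10974 to 11649 CPM in SC01. Most of each sum was PMEL and DCT. With TMM scaling, 9 markers were higher and 1, TYRP1, lower in SC07 than in SC01, where 31.5% and 30.5% of all genes were. TYRP1 averaged 702 CPM in SC10, 1212 in SC07 and 2394 in SC01. MLANA, like MITF, was highest in SC10, averaging 1514, 1072 and 604 CPM in the same order. SOX10, a defining factor of the lineage, was listed at 0 counts in every library. The gene annotation and counting rules behind the counts are not given, so this 0 cannot be read as absence of the transcript.

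Sequences before a RefSeq start are shown for KIT, KITLG and PDGFD. The genes were chosen because KIT was lower, and KITLG and PDGFD higher, in SC10 and SC07 than in SC01. The sequences are the 250 bases before the start annotated by RefSeq on GRCh38.p14, written 5′ to 3′ along the gene. The gene positions given below came from GENCODE, where the starts differ. By those positions the KITLG window lay wholly inside the gene. The KIT and PDGFD windows lay partly inside theirs. The table of promoter sequences held 6 of the 8 genes, PDGFB and PDGFC not among them. Capitals mark matches on either strand to GGGCGG, a GC box of the kind bound by SP1, or to GCCNNNGGC, a site of the kind bound by AP-2. The windows were chr4:54657707-54657956 on the plus strand for KIT, chr12:88580472-88580721 on the minus strand for KITLG and chr11:104164148-104164397 on the minus strand for PDGFD.
KIT: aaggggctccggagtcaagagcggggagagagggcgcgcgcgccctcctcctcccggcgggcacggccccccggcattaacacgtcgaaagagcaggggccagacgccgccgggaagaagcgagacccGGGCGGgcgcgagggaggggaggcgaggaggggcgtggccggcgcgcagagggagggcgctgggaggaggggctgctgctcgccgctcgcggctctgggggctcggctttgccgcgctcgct
KITLG: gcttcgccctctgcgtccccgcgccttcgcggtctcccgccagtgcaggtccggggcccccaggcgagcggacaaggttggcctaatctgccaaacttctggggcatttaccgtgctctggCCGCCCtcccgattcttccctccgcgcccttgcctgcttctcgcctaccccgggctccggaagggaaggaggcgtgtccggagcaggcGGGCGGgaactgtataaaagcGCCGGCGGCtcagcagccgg
PDGFD: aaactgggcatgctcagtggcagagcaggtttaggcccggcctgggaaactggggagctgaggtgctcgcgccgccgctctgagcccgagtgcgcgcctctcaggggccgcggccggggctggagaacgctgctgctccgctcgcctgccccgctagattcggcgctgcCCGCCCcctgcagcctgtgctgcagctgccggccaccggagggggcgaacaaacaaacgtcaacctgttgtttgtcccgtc
The KIT window had a GC content of 76.4%, against 69.2% in both ligand windows and a median of 58% over 35116 promoter windows. GGGCGG matched 1 time in KIT, 2 times in KITLG and 1 time in PDGFD, and it was present in 42.6% of all windows. GCCNNNGGC was present in 19.8% of all windows and matched 1 time, in KITLG. CACGTG and CATGTG, which MITF and its relatives bind, were present in 6.34% and 9.42% of all windows and in none of the 10 windows of the 6 genes. A match describes the letters in these windows and does not show binding.

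KIT (ENSG00000157404), the receptor for KITLG, was scarce in all clones and was detected at 6 counts in SC10 and 3 counts in SC07 over all their libraries. KIT had 4, 0 and 2 counts in the SC10 libraries and 0, 2 and 1 in the SC07 libraries, against 12, 15 and 13 in the SC01 libraries. All SC10 and SC07 libraries lay below every SC01 library. The means were 0.0560 ± 0.055 CPM in SC10, 0.0271 ± 0.026 CPM in SC07 and 0.398 ± 0.073 CPM in SC01 (SD, n = 3 here and below). The log2 change was -2.71 ± 0.66 (SE) for SC10 against SC01, with an adjusted p of 0.000746 in edgeR's quasi-likelihood test, and it was -3.58 without SC10 replicate 1. For SC07, with 3 counts over its libraries, the summed counts were 13.8-fold lower than in SC01, with a 95% interval of 4.40 to 69.8 that covers counting error only (adjusted p = 0.000133, edgeR). SC10 and SC07 could not be separated at this depth (log2 change 0.93 ± 1.1, adjusted p = 0.507, edgeR), and the interval of their count ratio ran from 0.431 to 12.5. KIT entered the tests only through the SC01 libraries, since none of the others reached 10 counts. In these bulk libraries, fewer cells that make a transcript and less of it per cell cannot be told apart.

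PDGFRA (ENSG00000134853), the receptor for PDGF-A, PDGF-B and PDGF-C, had its highest mean in SC10 and its lowest in SC07. Its levels were 0.899, 0.920 and 0.856 CPM in SC10, 0.152, 0.412 and 0.0597 CPM in SC07 and 0.577, 0.411 and 0.718 CPM in SC01. The SC10 libraries agreed closely and did not overlap either other clone, while the highest SC07 library lay just above the lowest of SC01. SC10 exceeded SC07 by a log2 change of 2.03 ± 0.43 (adjusted p = 0.000280, edgeR), and by 3.04 without SC07 replicate 2. The change of SC10 against SC01 was 0.64 ± 0.37 and did not pass the threshold (adjusted p = 0.130, edgeR). In SC07 against SC01 the change was -1.39 ± 0.46 (adjusted p = 0.00997, edgeR). That last call rested on single libraries, for the change was -2.39 without SC07 replicate 2, -0.97 without SC07 replicate 3 (adjusted p = 0.0681, edgeR) and -1.20 without SC01 replicate 3 (adjusted p = 0.0554). In addition, 15.8% of the PDGFRA exon bases are shared with AC058822.1, a gene annotated on the same strand that was listed at 0 counts in every library.

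PDGFRB (ENSG00000113721; chromosome 5, 150113837 to 150155872, minus strand), the receptor for PDGF-B and PDGF-D, showed no difference among the clones past the threshold (adjusted p = 0.0609 for any clone difference, edgeR). It had 10, 11 and 6 counts in SC10, 14, 22 and 18 in SC07 and 21, 11 and 18 in SC01. The SC10 libraries lay below all others, at 0.259 ± 0.076 CPM, against 0.510 ± 0.074 CPM in SC07 and 0.488 ± 0.12 CPM in SC01. The log2 change of SC10 against SC07 was -0.97 ± 0.41, just past the threshold (adjusted p = 0.0492, edgeR), and it no longer passed when any library of these clones was left out (adjusted p = 0.0528 to 0.186, edgeR). Without SC10 replicate 3 it was -0.76. Against SC01 the change in SC10 was -0.91 ± 0.41 (adjusted p = 0.0521, edgeR), and it passed the threshold when scaled by library totals alone (adjusted p = 0.0293). SC07 and SC01 differed by 0.06 ± 0.37, with an interval of the count ratio from 0.696 to 1.56.

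**Figure D1:**
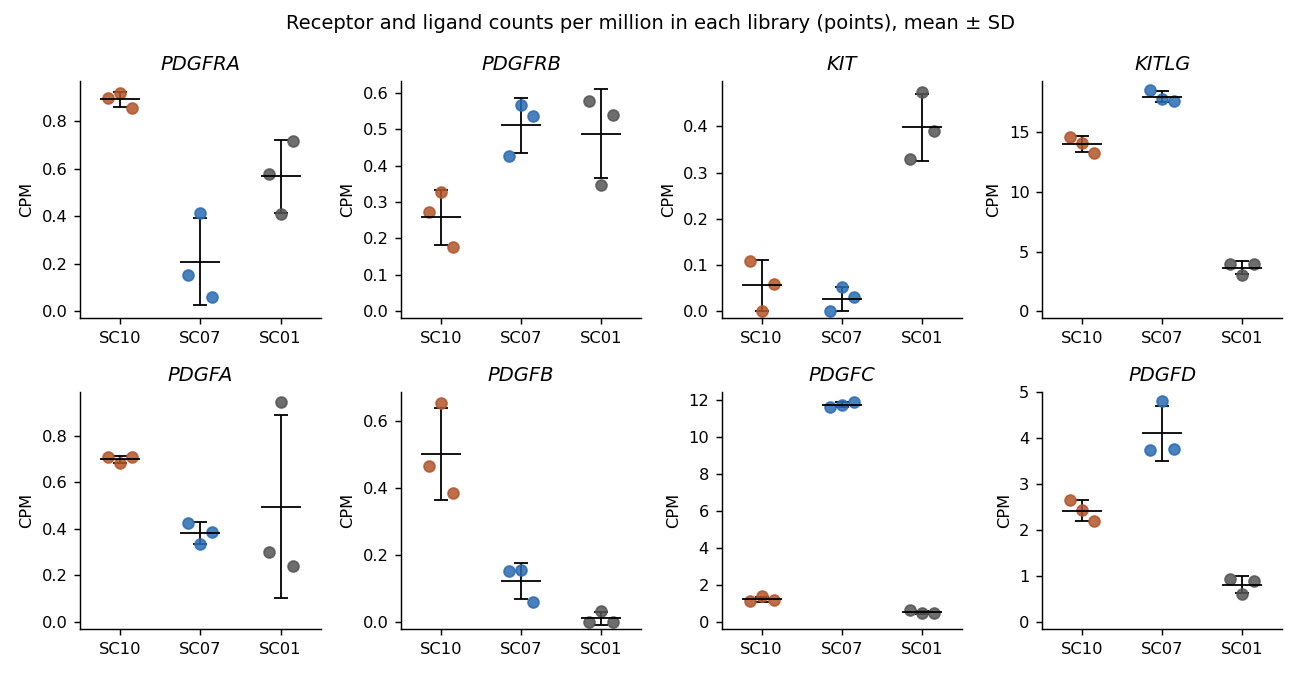
CPM (y axis, linear, scaled separately for each gene) in the 9 libraries, grouped by clone on the x axis; points are libraries, the horizontal mark is the mean and the bar the SD. KIT is near 0 in SC10 and SC07, PDGFC stands at 11.6 to 11.9 CPM in SC07, and 1 SC01 library sets the spread of PDGFA.

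KITLG (ENSG00000049130; chromosome 12, 88492793 to 88580851, minus strand), the ligand of KIT, was per length the most abundant gene of the group in every clone, and it was higher in both clones in which KIT was lower. It measured 14.6, 14.1 and 13.3 CPM in SC10, 18.5, 17.8 and 17.6 CPM in SC07 and 3.93, 3.07 and 3.98 CPM in SC01. No libraries of different clones overlapped. Against SC01, KITLG rose with log2 changes of 1.93 ± 0.099 in SC10 (adjusted p = 8.40e-16, edgeR) and 2.29 ± 0.098 in SC07 (adjusted p = 1.18e-17). The difference between SC10 and SC07 was small, at -0.36 ± 0.083 (adjusted p = 0.000643, edgeR). It passed the threshold for a change but not against a minimum change of 1.5-fold.

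PDGFC (ENSG00000145431; chromosome 4, 156760454 to 156971394, minus strand), a ligand of PDGFRA that is secreted in latent form, was far higher in SC07 than in SC10 or SC01. It measured 1.14, 1.39 and 1.18 CPM in SC10, 11.6, 11.7 and 11.9 CPM in SC07 and 0.632, 0.474 and 0.479 CPM in SC01. The SC07 libraries agreed closely, with an SD of 0.126 CPM, and lay above the other 6. The log2 change was 4.45 ± 0.16 for SC07 against SC01 (adjusted p = 2.22e-19, edgeR), a 21.9-fold difference. SC10 was lower than SC07 by a log2 change of -3.24 ± 0.14 (adjusted p = 4.80e-17, edgeR). PDGFC was also higher in SC10 than in SC01, by 1.21 ± 0.21 (adjusted p = 1.46e-05, edgeR).

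PDGFD (ENSG00000170962; chromosome 11, 103907186 to 104164379, minus strand), the ligand of PDGFRB that also needs activation outside the cell, followed the order of KITLG. Its levels were 2.64, 2.43 and 2.19 CPM in SC10, 3.75, 4.79 and 3.76 CPM in SC07 and 0.934, 0.601 and 0.898 CPM in SC01, with no overlap between clones. Against SC01 its log2 change was 1.57 ± 0.21 in SC10 (adjusted p = 1.97e-07, edgeR) and 2.33 ± 0.20 in SC07 (adjusted p = 4.35e-11). Between SC10 and SC07 the change was -0.76 ± 0.17 (adjusted p = 0.000430, edgeR), and it did not pass against a minimum of 1.5-fold.

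PDGFB (ENSG00000100311; chromosome 22, 39223359 to 39244751, minus strand), whose product binds both PDGF receptors, was detected mainly in SC10. Its counts were 17, 22 and 13 in SC10, 5, 6 and 2 in SC07 and 0, 1 and 0 in SC01. The 3 clones did not overlap. The summed counts of SC10 were 50.6-fold those of SC01, with a 95% counting interval of 8.69 to 2036 (adjusted p = 2.72e-06, edgeR). Those of SC07 were 12.5-fold those of SC01, with an interval of 1.88 to 533 (adjusted p = 0.00997, edgeR). Between SC10 and SC07 the log2 change was 1.99 ± 0.52 (adjusted p = 0.00226, edgeR). Without SC01 replicate 2, which held the only SC01 count, the fitted changes against SC01 have a clone at 0 and are no measure of size. PDGFB entered the tests only through SC10, the clone in which it was high.

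PDGFA (ENSG00000197461; chromosome 7, 497258 to 520296, minus strand), a ligand of PDGFRA, did not differ past the threshold in any comparison (adjusted p = 0.143 for any clone difference, edgeR). It measured 0.708, 0.682 and 0.709 CPM in SC10, 0.426, 0.335 and 0.388 CPM in SC07 and 0.302, 0.948 and 0.239 CPM in SC01. SC01 replicate 2 held 30 counts, against 11 and 8 in the other SC01 libraries, and lay above every library of SC10 and SC07. Without that library PDGFA passed the threshold in SC10 against SC01, with a log2 change of 1.35 (adjusted p = 0.00817, edgeR), against 0.52 ± 0.40 with it (adjusted p = 0.264). The SC10 libraries lay above those of SC07, by 0.87 ± 0.41 (adjusted p = 0.0851, edgeR).

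**Figure D2:**
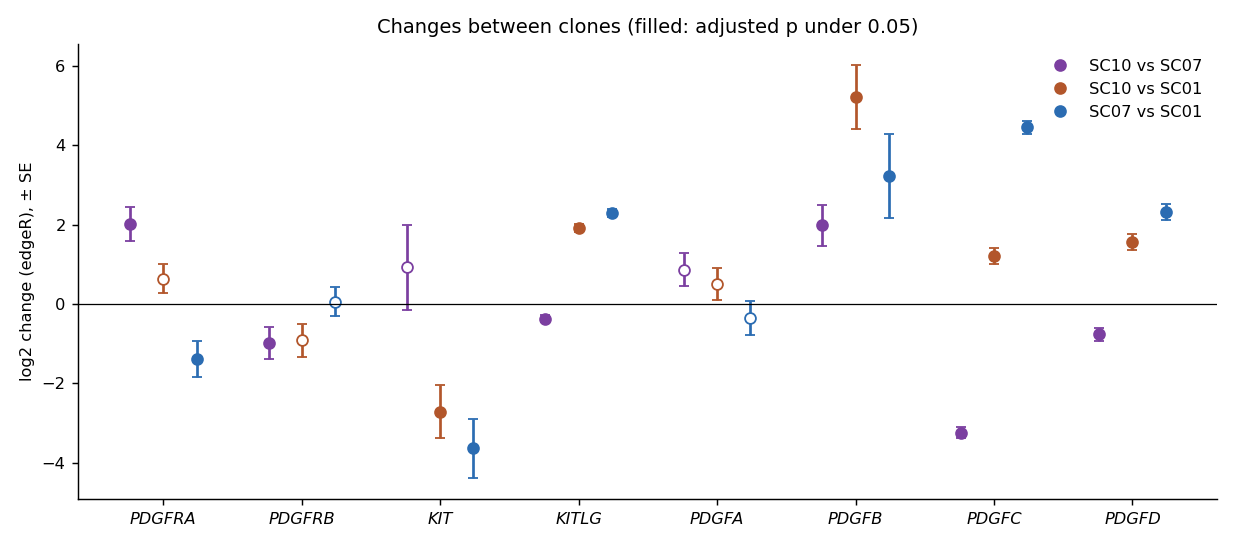
Log2 change with its SE (y axis) of each gene (x axis) in the 3 comparisons between clones; filled points passed an adjusted p of 0.05 in edgeR and open points did not. KITLG, PDGFC and PDGFD are positive and KIT negative in both comparisons with SC01, and the SE of genes with few counts in a clone, such as KIT and PDGFB, is too small.

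Taking the group as a whole, 6 of the 8 genes differed among the clones, where 76.3% of the 18009 genes tested did. In SC10 against SC07, 2 were higher and 4 lower, where 24.8% of all genes were higher and 23% lower (47.9% in either direction). In SC10 against SC01, 4 were higher and 1 lower, where 33.5% and 32.4% of all genes were (65.9% in either direction). In SC07 against SC01, 4 were higher and 2 lower, where 31.5% and 30.5% of all genes were (62% in either direction). With 8 genes, counts of calls near these shares are no result about the group. The libraries of the clones compared did not overlap for 7, 7 and 5 of the 8 genes in that order of comparisons, where 53.4%, 69.1% and 67.4% of all genes did not. The median log2 change of the 8 genes was 0.25, 0.93 and 1.18 in the same order, against -0.01 over all genes tested in each comparison. KIT and PDGFB, which passed the count filter only through the clone where they were high, are included in these figures. The 2 comparisons with SC01 share its 3 libraries. Scaled by library totals alone, the median of all genes lay at -0.12 for both comparisons with SC01, and the calls split into 5044 higher and 7094 lower in SC10 (6028 and 5836 with TMM) and 4666 higher and 6841 lower in SC07 (5675 and 5487 with TMM).

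Levels of different genes were compared per kilobase of exon. KITLG stood first in every clone, at 2.25 ± 0.11 CPM per kilobase in SC10, 2.90 ± 0.074 in SC07 and 0.590 ± 0.083 in SC01. Per length it exceeded 44.5% of the genes tested in SC10 and 49.6% of those in SC07, against 24.98% in SC01. The 3 receptors lay low, between the 0.297 and the 5.44 percentile of the genes tested. In SC10 the order was KITLG, PDGFD, PDGFC, PDGFA, PDGFB, PDGFRA, PDGFRB and KIT, and only PDGFA and PDGFB overlapped among neighbours. In SC07 it was KITLG, PDGFC, PDGFD, PDGFA, PDGFRB, PDGFB, PDGFRA and KIT, with overlap among the last 3. In SC01 it was KITLG, PDGFD, PDGFA, PDGFC, KIT, PDGFRB, PDGFRA and PDGFB. There the neighbours from PDGFD to PDGFRA all overlapped, so that their order could not be resolved, and with the longest transcript as the length 4 of the 8 genes changed rank.

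The PDGF ligand pool was largest in SC07, and there it consisted mainly of PDGFC. Summed per length, the 4 ligands stood at 1.09 ± 0.084 CPM per kilobase in SC10, 3.18 ± 0.14 in SC07 and 0.407 ± 0.054 in SC01. PDGFC made up 20.3% ± 1.8 of this sum in SC10, 66.0% ± 2.9 in SC07 and 23.5% ± 4.8 in SC01. PDGFD held 52.0% ± 3.1 in SC10, 30.1% ± 3.0 in SC07 and 48.0% ± 15 in SC01. On average it was the largest part in SC10 and SC01. For SC01 this depended on the length used. With the longest transcript as the length, the mean level of PDGFA stood above that of PDGFD in SC01. PDGFD stayed the highest PDGF ligand in SC10. PDGFA held 15.5% ± 1.5 in SC10, 2.91% ± 0.46 in SC07 and 27.9% ± 19 in SC01. In SC01 replicate 2 PDGFA was the largest part, at 49.4%. No test was made of these shares, and those of PDGFC and PDGFD overlapped between the SC10 and SC01 libraries. PDGFB reached 12.1% ± 2.5 in SC10 and at most 1.82% in any library of SC07 or SC01. Among the receptors, PDGFRA held 66.7% ± 4.9 of the summed level in SC10 and PDGFRB 75.5% ± 13 in SC07, while PDGFRA, PDGFRB and KIT held 29.1% ± 4.9, 34.2% ± 6.4 and 36.7% ± 10 in SC01. These receptor shares rest on between 2 and 33 counts per gene and library for the PDGF receptors and between 0 and 15 for KIT.

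**Figure D3:**
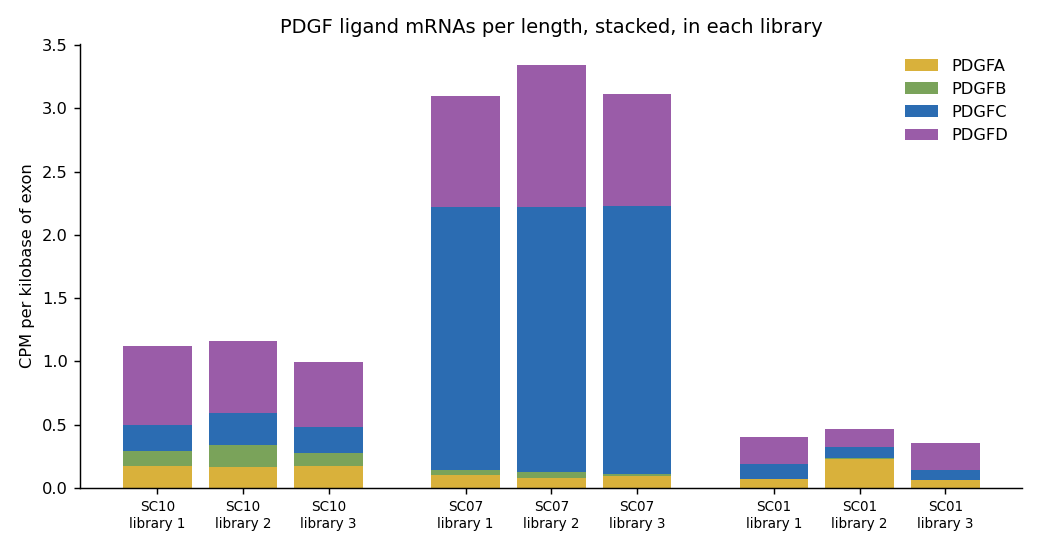
Stacked bars of PDGF ligand levels in CPM per kilobase of exon (y axis, from 0) for each library (x axis), SC10, SC07 and SC01 from left to right. SC07 libraries reach between 3.10 and 3.34 with PDGFC as the main part, SC10 libraries between 0.996 and 1.16 with PDGFD as the main part, and SC01 libraries at most 0.462.

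PDGFRA and KIT lie side by side on chromosome 4 (GRCh38, 54229097 to 54298247 and 54657918 to 54740715, both on the plus strand), with 359671 bases between them. KDR, which encodes a receptor of vascular endothelial growth factor, follows KIT. KDR measured 3.56 ± 0.10 CPM in SC10, 5.41 ± 0.53 CPM in SC07 and 20.8 ± 0.54 CPM in SC01, and it changed by -2.54 in SC10 and by -1.94 in SC07 against SC01 (adjusted p = 8.31e-19 and 1.03e-16, edgeR). Of 13 genes listed around PDGFRA and KIT, 10 were tested. In SC10 and again in SC07 against SC01, 5 of them were higher and 1, KDR, was lower. Of all genes 33.5% and 31.5% were higher, and 32.4% and 30.5% lower. FIP1L1, which encodes an mRNA processing factor, changed by 0.82 and 0.85 in these comparisons, with 45.7% of its exon bases shared with other genes. CLOCK, a circadian transcription factor, changed by 0.31 and 0.66, EXOC1 of the exocyst by 0.33 and 0.21, TMEM165 of the Golgi by 0.26 and 0.29 and SCFD2 by 0.19 and 0.36. SRD5A3, CEP135, CHIC2 and LNX1 did not pass the threshold in either comparison. Scaled by library totals alone, 2 were lower in SC07. KIT and KDR were thus lower than in SC01 in both clones while their tested neighbours changed by less than 1 on the log2 scale, PDGFRA in SC07 excepted.

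**Figure D4:**
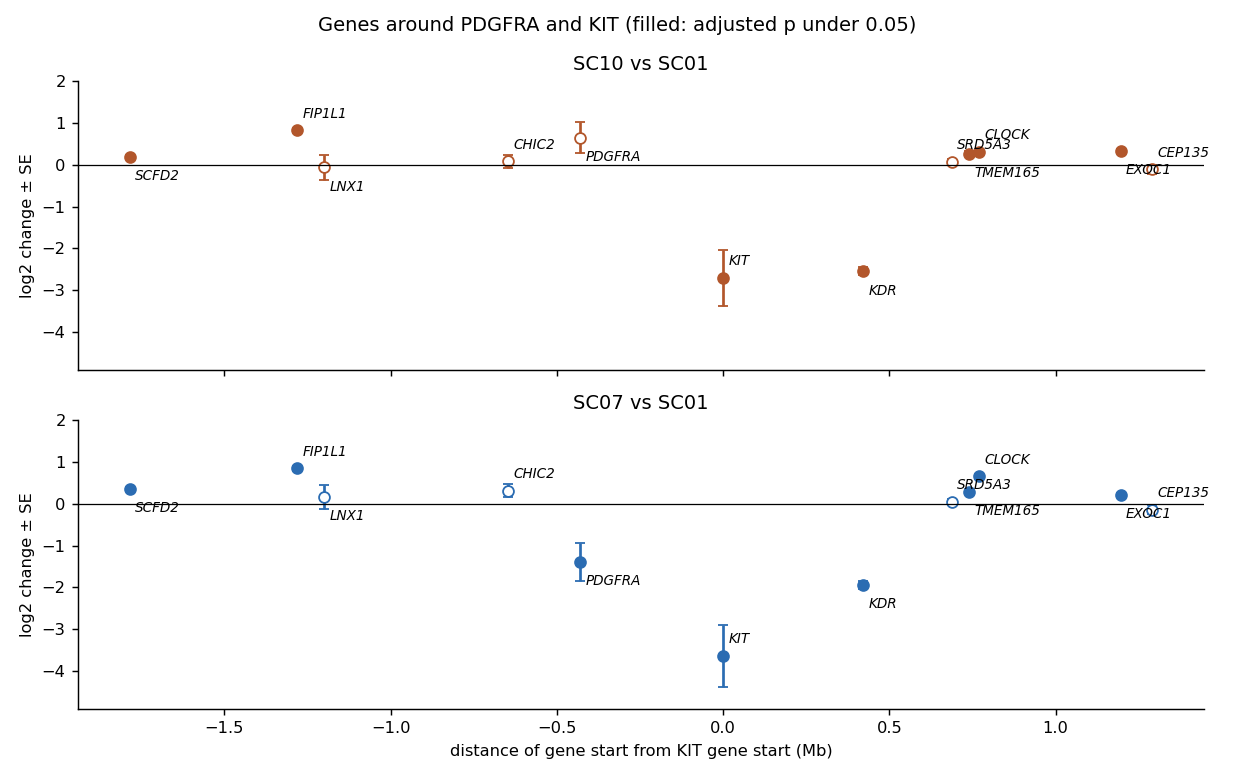
Log2 change with its SE (y axis) of the tested genes around PDGFRA and KIT, against the distance of each gene's start from that of KIT in megabases (x axis), for SC10 against SC01 above and SC07 against SC01 below; filled points passed an adjusted p of 0.05. KIT and KDR lie well below 0 in both panels and PDGFRA below 0 in SC07.

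Of 13 genes that activate, cleave or bind the ligands 9 were tested. Against SC01, where 65.9% of all genes were called in SC10 and 62% in SC07, 4 were higher and 5 lower in SC10, with 3 higher and 5 lower in SC07 (1 higher in SC07 by library totals alone). Between SC10 and SC07, where 47.9% of all genes were called, 3 were higher and 1 lower in SC10. With 76.3% of all genes differing among the clones, calls on 9 genes do not set the list apart. The median changes were -0.19, -0.20 and 0.34. PLAT, the tissue plasminogen activator that can activate PDGF-C, measured 191 ± 1.8 CPM in SC10, 106 ± 4.7 in SC07 and 278 ± 1.5 in SC01, lowest in the clone with most PDGFC. PCSK6, a proprotein convertase, measured 6.39 ± 0.52, 2.24 ± 0.10 and 4.27 ± 0.35 CPM in the same order. BMP1, a protease known to cleave matrix precursors, stood at 22.6 ± 0.61 CPM in SC10, 37.7 ± 2.0 in SC07 and 34.0 ± 2.1 in SC01, and ADAM10, a sheddase, at 111 ± 4.8, 84.5 ± 4.7 and 84.9 ± 1.7 CPM. NRP1, a co-receptor that can bind PDGF, had 4 counts in SC10, 1 in SC07 and 66 in SC01. It was named after its values were seen and passed the count filter only through SC01, so these counts are a description. PLG, PLAU, PCSK5 and ST14 had too few counts to be tested.

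Adaptors and enzymes that bind activated receptors were tested for 35 of 36 genes. In SC10 against SC01 15 were higher and 12 lower, where 33.5% and 32.4% of all genes were. In SC07 against SC01 16 were higher and 8 lower, where 31.5% and 30.5% of all genes were, and in SC10 against SC07 7 were higher and 10 lower, where 24.8% and 23% were. The medians were 0.06, 0.08 and -0.05, and the counts of calls are near those shares and no result about the list. JAK2, a tyrosine kinase upstream of STAT proteins, measured 30.6 ± 2.1 CPM in SC10, 62.1 ± 4.2 in SC07 and 12.5 ± 0.34 in SC01. PIK3R3, a regulatory subunit of phosphoinositide 3-kinase, stood at 30.1 ± 1.4, 46.6 ± 1.4 and 12.8 ± 0.37 CPM in the same order, with 17.4% of its exon bases shared with other genes. Both were highest in SC07 and lowest in SC01. The adaptor GRB7 measured 1.32 ± 0.37 CPM in SC10, 1.78 ± 0.58 in SC07 and 0.126 ± 0.035 in SC01, and the adaptor GRB14 measured 3.57 ± 0.73, 2.80 ± 0.32 and 0.881 ± 0.13 CPM in the same order. Both were lowest in SC01, and they did not differ between SC10 and SC07 past the threshold (adjusted p = 0.191 and 0.0889, edgeR).

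Genes listed as negative regulators of the receptors were tested for 16 of 20. The list includes the phosphatase PTPN11, whose role is not only negative and which was among the genes counted lower in each comparison. In SC10 against SC01 8 were higher and 4 lower, where 33.5% and 32.4% of all genes were. In SC07 against SC01 7 were higher and 6 lower, where 31.5% and 30.5% of all genes were, and in SC10 against SC07 9 were higher and 2 lower, where 24.8% and 23% were. The medians were 0.20, 0.23 and 0.32. PTPN1, a phosphatase that acts on receptor tyrosine kinases, measured 1449 ± 42 CPM in SC10, 909 ± 18 in SC07 and 417 ± 12 in SC01. SH2B3, the adaptor LNK that restrains KIT in blood cells, stood at 193 ± 15, 149 ± 5.6 and 66.5 ± 2.2 CPM in the same order. CBLB, a ubiquitin ligase, was instead highest in SC01, with 15.2 ± 1.0 CPM in SC10, 11.0 ± 0.67 in SC07 and 30.2 ± 1.2 in SC01. DOK1, an adaptor that dampens RAS signalling, measured 10.8 ± 1.3 CPM in SC10, 4.48 ± 0.048 in SC07 and 11.9 ± 0.43 in SC01, lowest in SC07. The phosphatase PTPN6 had too few counts to be tested.

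The other receptors of the same class were scarce. CSF1R measured 0.519 ± 0.11 CPM in SC10, 0.330 ± 0.059 in SC07 and 0.479 ± 0.13 in SC01 with no difference past the threshold, and FLT3 and its ligand FLT3LG fell below the count filter, as did IL34. CSF1, the ligand of CSF1R, measured 11.5 to 13.3 CPM in the SC10 libraries, 6.24 to 7.60 CPM in those of SC07 and 23.8 to 25.3 CPM in those of SC01. Its log2 change was -0.99 ± 0.080 in SC10 (adjusted p = 1.46e-11, edgeR) and -1.79 ± 0.085 in SC07 (adjusted p = 1.38e-16) against SC01. CSF1 was therefore lower in the clones in which KITLG, PDGFC and PDGFD were higher.

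Of 10 transcription factors known to act on KIT or on its targets in melanocytes, 8 were tested. Against SC01, 3 were higher and 5 lower in SC10, where 33.5% and 32.4% of all genes were. In SC07 against SC01, 2 were higher and 6 lower, where 31.5% and 30.5% of all genes were. By library totals alone, 1 was higher in each. The medians were -0.63 and -0.70. In SC10 against SC07, 4 were higher and 1 lower, where 24.8% and 23% of all genes were, with a median of 0.15. The list was chosen with earlier results known, so these counts are a description. TFAP2A, which encodes AP-2 alpha, a factor known to activate KIT, measured 115 ± 3.8 CPM in SC10, 116 ± 1.0 in SC07 and 348 ± 6.8 in SC01, with 16.7% of its exon bases shared with other genes. TFAP2C, encoding AP-2 gamma, stood at 2.46 ± 0.33, 2.20 ± 0.32 and 8.19 ± 0.62 CPM in the same order. Neither differed between SC10 and SC07 past the threshold (adjusted p = 0.899 and 0.444, edgeR). KIT was higher in SC01 than in SC10 and SC07, and whether either factor acts on it in these cells was not tested. SNAI2, a zinc finger factor that acts downstream of KIT in melanoblasts of the mouse, measured 49.5 ± 1.9 CPM in SC10, 32.4 ± 0.64 in SC07 and 89.0 ± 1.8 in SC01. ZEB2, another zinc finger factor, stood at 115 ± 15, 86.4 ± 1.3 and 173 ± 4.7 CPM. MITF, a target of KIT signalling and the central factor of the lineage, named after its values were seen, was higher in SC10 and SC07 than in SC01 with TMM scaling, with 550 ± 20 CPM in SC10, 499 ± 13 in SC07 and 450 ± 1.9 in SC01.

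**Figure D5:**
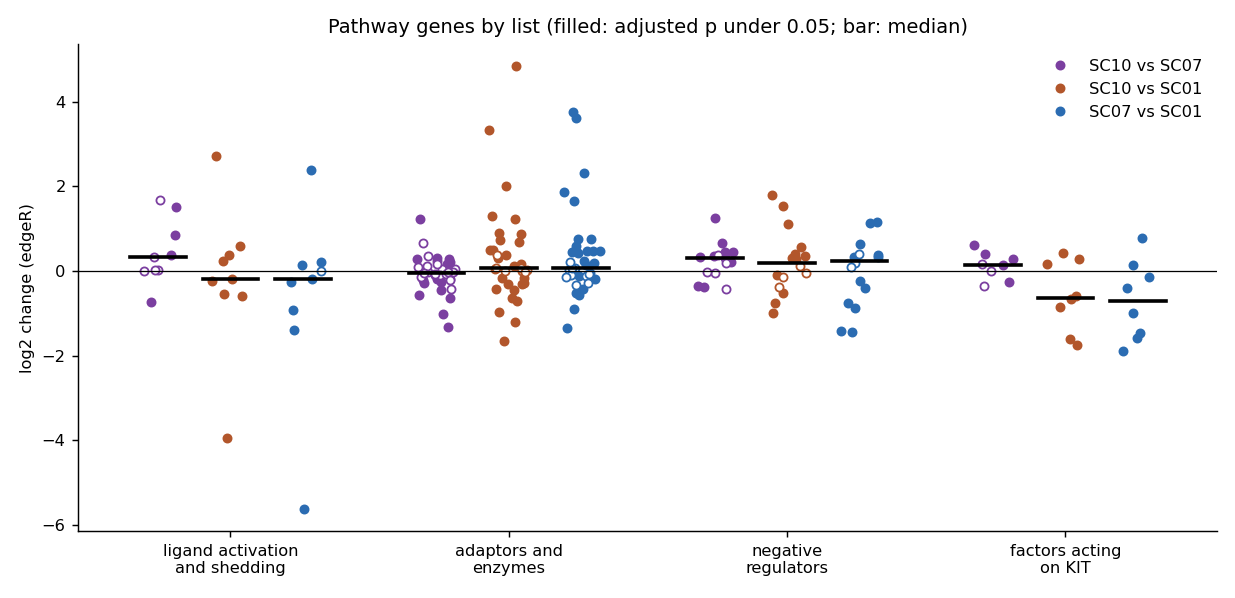
Log2 change (y axis) of every tested gene in 4 lists (x axis) for the 3 comparisons; filled points passed an adjusted p of 0.05 in edgeR, open points did not, and the bar is the list's median. Medians lie near 0 for the ligand, adaptor and regulator lists, within 0.34 on either side, and at -0.63 and -0.70 for the factors acting on KIT in both comparisons with SC01; the points at -3.96 and -5.63 are NRP1, which had few counts in SC10 and SC07.

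Some genes followed the pattern of a ligand across the 9 libraries. Likeness was the root mean square difference in centred log2 CPM among 12277 other protein-coding genes, and it was computed for KITLG, PDGFC and PDGFD, the members that reached 1 CPM in a clone. PLS1, an actin-bundling protein, SS18L1 and TMCC3 lay closest to KITLG, with differences of 0.115, 0.116 and 0.122. BAZ2B and STXBP5L were among the closest to PDGFD, with differences of 0.180 and 0.195. PDGFC had no neighbour as close, with RAB3B, a GTPase of secretory vesicles, at 0.368, GAGE1 at 0.432 and CD300LD at 0.472. CD300LD averaged 0.136 CPM in SC10, 2.35 in SC07 and 0 in SC01, so its likeness rests on levels near 0. GAGE1 belongs to a family of near-identical copies, so its counts are uncertain. These distances rest mostly on the 3 clone levels.

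Markers of cell types in which these receptors and ligands are known to be expressed were checked in the same libraries. Among 9 mast cell markers 2 had no count, CPA3 among them, and 8 stayed under 1 CPM in every clone, GATA2 being the exception. Of 10 fibroblast markers 6 stayed under 1 CPM, among them COL1A2 and COL3A1. Their summed level was 363 to 401 CPM in SC10, 437 to 498 CPM in SC07 and 161 to 168 CPM in SC01. Most of it was LUM. LUM and DCN had the order of KITLG and PDGFD across the clones. FBLN1 did not, with 28.9 ± 1.1 CPM in SC10, 9.59 ± 0.21 in SC07 and 30.5 ± 0.89 in SC01. COL1A1 was highest in SC01, at 1.15 ± 0.12, 1.20 ± 0.12 and 2.04 ± 0.66 CPM in the same order. Of the 4 fibroblast markers tested, 2 were higher and 1 lower in SC10 than in SC01 (2 lower by library totals alone). In SC07 against SC01, 2 were higher and 2 lower. Of all genes 33.5% were higher and 32.4% lower in SC10, and 31.5% and 30.5% in SC07. These counts are no result about the list. Each clone was raised from 1 melanoma cell, and whether any fibroblasts were present in the cultures was not tested. Of 9 pericyte and smooth muscle markers 4 stayed under 1 CPM. All 9 summed to 28.6 to 32.4 CPM in SC10, 16.7 to 19.1 in SC07 and 29.1 to 32.2 in SC01. The SC10 and SC01 sums were alike, but single markers changed in opposite directions. Of 6 tested, 2 were higher and 2 lower in SC10 than in SC01. NOTCH3 was higher by a log2 change of 1.69 and DES, scarce in SC01, by 3.34. CSPG4 changed by -2.26 and ACTA2 by -1.24. Endothelial markers stayed under 1 CPM for 6 of 7 genes, with CDH5 at 1 count in all libraries and EMCN at 0. Their sum, most of it VWF, was 5.37 to 5.91 CPM in SC10, 8.82 to 11.0 CPM in SC07 and 3.29 to 3.43 CPM in SC01. Immune markers stayed under 1 CPM for 4 of 6 genes, with sums of 1.51 to 1.99 CPM in SC10, 3.94 to 4.79 CPM in SC07 and 1.35 to 1.59 CPM in SC01. Both sums were highest in SC07, as was PDGFC. Most of the immune sum in SC07 was PTPRC, at 0.735 ± 0.14 CPM in SC10, 3.12 ± 0.50 in SC07 and 0.173 ± 0.15 in SC01. ITGAM, the other immune marker tested, had its highest mean in SC01, at 0.666 ± 0.16, 0.807 ± 0.20 and 1.06 ± 0.070 CPM in the same order. Whether any endothelial or immune cells were present in these cultures was not tested. Keratinocyte markers stayed under 1 CPM for 5 of 7 genes, with sums of 23.4 to 27.3 CPM in SC10, 22.3 to 22.5 CPM in SC07 and 21.8 to 24.2 CPM in SC01, most of it KRT10. KRT14, a keratin of basal keratinocytes, was also highest in SC07, at 0.0197 ± 0.017 CPM in SC10, 1.23 ± 0.43 CPM in SC07 and 0.220 ± 0.15 CPM in SC01.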

How the data were processed

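The labels describe RNA sequencing of 9 libraries, 3 from each of the clones SC10, SC07 and SC01. The authors deposited raw read counts per Ensembl gene for all libraries in one table. The tools HISAT2 and featureCounts and the build GRCh38 are named per the submitters' processing notes. Neither versions nor the gene annotation, strandedness or handling of reads matching several genes is given in the sources used here. Of protein-coding genes whose exons are at least 95% shared with another gene, 196 of 326 (same strand) and 15 of 21 (opposite strand) had no count, against 10.8% of genes with under 5% shared, so exons shared between genes can be undercounted.

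Names, positions and exon lengths came from GENCODE 29, which held 57055 of 60675 IDs. Libraries were assigned by their labels. Genes were kept with filterByExpr (minimum count 10), leaving 18009. After TMM scaling, a robust quasi-likelihood model of edgeR 4.0.16 (R 4.3.3) was fitted to the 9 libraries together. P-values were adjusted over all genes by Benjamini-Hochberg, with a threshold of 0.05. CPM uses TMM-scaled totals of the genes kept. Standard errors were derived from the log2 change and its F statistic and are too small where a clone has few counts; there, ratios of summed counts carry exact 95% intervals for counting error only. The fit was tested on simulated counts. Sister libraries exceeded sampling noise (chi-square per degree of freedom 2.56 to 11.7), so none was taken for a repeat deposit.

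The genes and lists were chosen with earlier results of these data known. All 8 genes are named, with up to 4 genes per other list that differed among clones, reached 1 CPM and had the largest changes, every tested gene around PDGFRA and KIT, and the 3 genes most like a member, of which 1 is not reported here; NRP1, MITF, CSF1R and the markers named lie outside this rule. The alternatives tried were different scalings and filters, DESeq2 1.42.0, limma-voom (limma 3.58.1), each pair of clones alone, a non-robust fit, a test against 1.5-fold, a block for replicate number, and the omission of each library in turn.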

Additional observations from a re-analysis of the deposited data

How the results depend on the processing

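Of 367 alternative values for the members' log2 changes, 342 kept their direction and their side of the threshold. KIT, KITLG, PDGFB, PDGFC and PDGFD kept theirs in both comparisons with SC01 under every alternative that tested them; a minimum of 1 CPM in 3 libraries left out all members but KITLG, PDGFC and PDGFD. PDGFRB in SC10 against SC07 (adjusted p = 0.0492) lost its call without a count filter (-0.98), with DESeq2 (-0.98), with these clones alone (-0.97), with replicate number as a block (-0.98), against a 1.5-fold change (-0.97) and without any 1 library of these clones (-1.16 to -0.76). In SC10 against SC01 it gained a call with library totals (-1.02), with a non-robust fit (-0.91) and without SC01 replicate 2 (range without a library -1.10 to -0.70). In SC07 against SC01 its sign turned with library totals (-0.045) and without SC07 replicate 2 or SC01 replicate 2 (range -0.13 to 0.20). Its test of any clone difference passed with library totals (adjusted p = 0.0442) and without SC01 replicate 2 (range of adjusted p 0.0483 to 0.271).

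PDGFA gained a call in SC10 against SC07 with these clones alone (0.87), and without SC01 replicate 2 in SC10 against SC01 (range without a library 0.19 to 1.35) and in the test of any difference (adjusted p 0.0117 to 0.269); in SC07 against SC01 it turned to 0.48 without that library (range -0.69 to 0.48). PDGFRA in SC07 against SC01 lost its call against 1.5-fold (-1.39, adjusted p = 0.0713) and without SC07 replicate 3 or SC01 replicate 3 (range -2.39 to -0.97). Against 1.5-fold, KITLG (-0.36) and PDGFD (-0.76) also lost theirs in SC10 against SC07, and 1444, 4192 and 3703 genes passed in SC10 against SC07, SC10 against SC01 and SC07 against SC01. The cause of the other changes was not tested.

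The block changed no other call of a member, and the numbers do not pair the libraries (correlations of same-numbered deviations between -0.02 and 0.04; 3 of 9 libraries were closest to their own number). With the longest transcript as the length, 6 members kept their rank per length in SC10, 8 in SC07 and 4 in SC01. Of 1248 alternative list counts, 94 moved by over 1.5 times, 37 of them against 1.5-fold. Depth limits KIT, PDGFA, PDGFB and the PDGF receptors, with at most 33 counts in a library.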
